A study of Mus musculus with 2 samples.

Results

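Immediate early genes are transcribed within minutes of a stimulus from factors already present in the cell, without new protein synthesis. Fos, Fosb, Jun, Junb and Jund encode subunits of AP-1, a dimer of leucine zipper proteins in which Fos proteins pair with Jun proteins, and Atf3 encodes a related leucine zipper factor. Egr1 encodes a zinc finger transcription factor, Nr4a1 an orphan nuclear receptor that is induced by antigen receptor signalling in T cells, Ier2 a nuclear protein of the early response, and Dusp1 a phosphatase that turns MAP kinases off. The same genes are known to be switched on while tissue is dissociated into single cells. The 10 genes were taken by symbol, each matched 1 gene identifier, and together they make up 10 of the 32245 symbols in the count matrices.

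The data come from wild type mice bearing tumours of MC38-OVA, mouse colon carcinoma cells that express ovalbumin, and fed a sitagliptin diet or a control diet. Sitagliptin inhibits the peptidase DPP4. CD45+ cells were taken from the tumours with magnetic beads and sequenced from the 5' end of transcripts with the SeekOne DD kit. There is 1 library per diet, so no test between diets is possible and no value has a replicate spread. How many mice went into a library, their age, and the dose and duration of feeding are not stated in the labels.

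The sitagliptin library held 9766 barcodes and 76788699 UMIs, and the control library 8694 barcodes and 64139749 UMIs, with a median of 5159 and 5074 UMIs per barcode. After removal of likely doublets 9180 and 8172 barcodes stayed, and 132 barcode sequences occurred in both libraries. Cell classes were called from marker UMIs, none of them one of the 10 genes. The sitagliptin and control libraries gave 402 and 246 T cells, 123 and 83 NK cells, 3654 and 2609 monocytes and macrophages, 183 and 141 dendritic cells and 42 and 52 neutrophils. Another 3581 and 3352 barcodes were left unassigned, and 563 and 633 held T cell and macrophage markers together. Levels are given as CPM, the UMIs of a gene per 1000000 UMIs of its class in that library, with exact Poisson 95% intervals, and a ratio is sitagliptin over control with an exact conditional 95% interval. Both kinds of interval cover counting error only, and neither covers the spread between barcodes of a class or the difference between mice or between libraries.

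A last class was meant to hold tumour-like cells. It took barcodes without a UMI of Ptprc, the gene for CD45. They also needed at least 5000 UMIs in all, at most 10 of macrophage markers and few of T cell markers. The class numbered 599 in the sitagliptin library and 1037 in the control library, and barcodes of lower depth were outside it. Epithelial markers went against that label. Krt8, Krt18, Krt19, Krt7, Epcam, Cdh1 and Cldn7 summed to 1.43 CPM in the sitagliptin library and 0.995 CPM in the control library. Fibroblast markers summed to 403 and 290 CPM, unevenly over the list. Dcn was at 235 and 178 CPM, Col3a1 at 102 and 67.7 CPM, and Col1a1 at only 9.14 and 2.61 CPM. Cald1, Hmga2 and Sparc were among the leading genes. The class is called Ptprc-negative barcodes here. Barcodes were kept out of the immune classes if they held more than 2 UMIs of 5 such leading genes, at 400 CPM or more of the barcode. This rule was chosen after the data were seen. Some of this RNA stayed, with Cald1 at 8.72 and 9.91 CPM in monocytes and macrophages. Unassigned barcodes held more of it, with Cald1 at 349 and 448 CPM.

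Promoter sequences are shown for 4 genes whose levels differ in kind below: Fos and Dusp1, which were lower with sitagliptin in T cells and in macrophages, Jun, which was lower in T cells and higher in macrophages, and Nr4a1, which stayed near a ratio of 1 in both. Each window is a RefSeq sequence of the GRCm38.p6 build from 250 bases before to 50 bases after the gene's start, written 5' to 3' on the gene's strand. Capitals mark TGACG or its reverse complement CGTCA, the core of the cAMP response element (CRE) bound by CREB and ATF factors.
Fos chr12:85473640-85473939 (+ strand): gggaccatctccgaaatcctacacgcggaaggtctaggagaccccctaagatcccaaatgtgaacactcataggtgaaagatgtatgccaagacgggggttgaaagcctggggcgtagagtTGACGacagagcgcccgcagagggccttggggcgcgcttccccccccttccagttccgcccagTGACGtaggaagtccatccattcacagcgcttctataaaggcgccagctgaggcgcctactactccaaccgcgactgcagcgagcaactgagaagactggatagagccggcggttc
Dusp1 chr17:26508423-26508722 (- strand): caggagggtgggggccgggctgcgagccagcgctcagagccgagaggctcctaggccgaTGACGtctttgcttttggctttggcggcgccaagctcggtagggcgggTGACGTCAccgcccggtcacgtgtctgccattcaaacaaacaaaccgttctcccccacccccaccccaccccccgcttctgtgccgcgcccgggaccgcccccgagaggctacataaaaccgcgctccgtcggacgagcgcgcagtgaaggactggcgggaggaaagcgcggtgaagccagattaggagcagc
Jun chr4:95052173-95052472 (- strand): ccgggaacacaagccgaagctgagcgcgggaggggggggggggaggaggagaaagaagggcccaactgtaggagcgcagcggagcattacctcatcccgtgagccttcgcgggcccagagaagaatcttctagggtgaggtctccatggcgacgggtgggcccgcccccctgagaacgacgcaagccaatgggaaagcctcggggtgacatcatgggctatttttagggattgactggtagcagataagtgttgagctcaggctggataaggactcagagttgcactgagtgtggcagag
Nr4a1 chr15:101266596-101266895 (+ strand): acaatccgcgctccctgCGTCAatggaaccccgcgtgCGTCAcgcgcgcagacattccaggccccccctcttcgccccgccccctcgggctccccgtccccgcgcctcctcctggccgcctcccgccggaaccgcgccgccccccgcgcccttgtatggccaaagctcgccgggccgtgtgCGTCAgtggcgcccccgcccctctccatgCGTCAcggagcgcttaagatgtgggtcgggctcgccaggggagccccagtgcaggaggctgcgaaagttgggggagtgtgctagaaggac

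The core was present in 6 of the 8 genes of the set whose promoter was searched, against 20.8% of all 32851 RefSeq promoters. Promoters of Egr1 and Ier2 were not searched, so these counts do not cover them. Nr4a1 held 4 copies, Dusp1 3, Fos 2, and Fosb, Junb and Atf3 1 each. Dusp1 held the full palindrome TGACGTCA, which 2 of its 3 copies make up, beginning 143 bases before the start, and 1.79% of promoters hold it. Jun and Jund held no copy in these windows. The EGR site GCGNGGGCG was found in Fosb and Nr4a1, against 5.55% of promoters. Neither the AP-1 site TGANTCA (7.81% of promoters) nor the CArG box (1.63%) lay in any of the 8 windows. Both strands were searched, and a match is a description of letters.

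Each gene had its own order of cell classes, and the order was led by the same class in both libraries for all 10 genes. Fos was highest in monocytes and macrophages, at 1258 CPM in the sitagliptin library and 1629 CPM in the control library, and lowest in NK cells, at 210.0 and 199 CPM. T cells (230 and 421 CPM) lay next to NK cells, with overlapping intervals in the sitagliptin library and separate ones in the control library. Fosb and Nr4a1 also had their highest levels in monocytes and macrophages, with 393 and 431 CPM for Fosb and 124 and 134 CPM for Nr4a1. Nr4a1 varied least, and the intervals of all 6 pairs of neighbouring classes in its order overlapped in both libraries. Junb, Atf3 and Dusp1 were highest in neutrophils, in which Atf3 had 1063 and 1042 CPM and Dusp1 332 and 388 CPM. The neutrophil class also held macrophage RNA, with C1qa at 790.2 and 875 CPM and Csf1r at 325 and 373 CPM, against 1345 and 1816 CPM and 437 and 467 CPM in monocytes and macrophages, and its part in these levels was not tested.

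Jun, Egr1 and Ier2 had their highest levels outside the leucocyte classes. In Ptprc-negative barcodes Jun had 1338 CPM in the sitagliptin library and 1328 CPM in the control library, against 321 and 267 CPM in monocytes and macrophages. Egr1 was at 441 and 538 CPM there, against 56.8 and 56.7 CPM in monocytes and macrophages. Ier2 was at 346 and 411 CPM in these barcodes and at 95.3 and 107 CPM in monocytes and macrophages.

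Jund ran against the other genes. It was highest in T cells, with 359 CPM in the sitagliptin library and 466 CPM in the control library, and lowest in monocytes and macrophages, with 156 and 162 CPM. Over 18 classes in 2 libraries (36 points, log2 of CPM + 10) its Pearson correlation with the mean of the other 9 genes was -0.72. Atf3 (0.92), Fos (0.90) and Nr4a1 (0.88) followed that mean most closely, and Ier2 was at -0.21. Classes of one library share its depth and its free RNA and subsets nest in larger classes, so these correlations describe the points and carry no test. The 8 genes whose pattern was closest to the mean of the 10, among 4495 genes, were Ier3 (0.963), Anxa5, Sdc4, Eps8, Myof, Asah1, Lamp2 and Ralb (0.948).

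**Figure D1:**
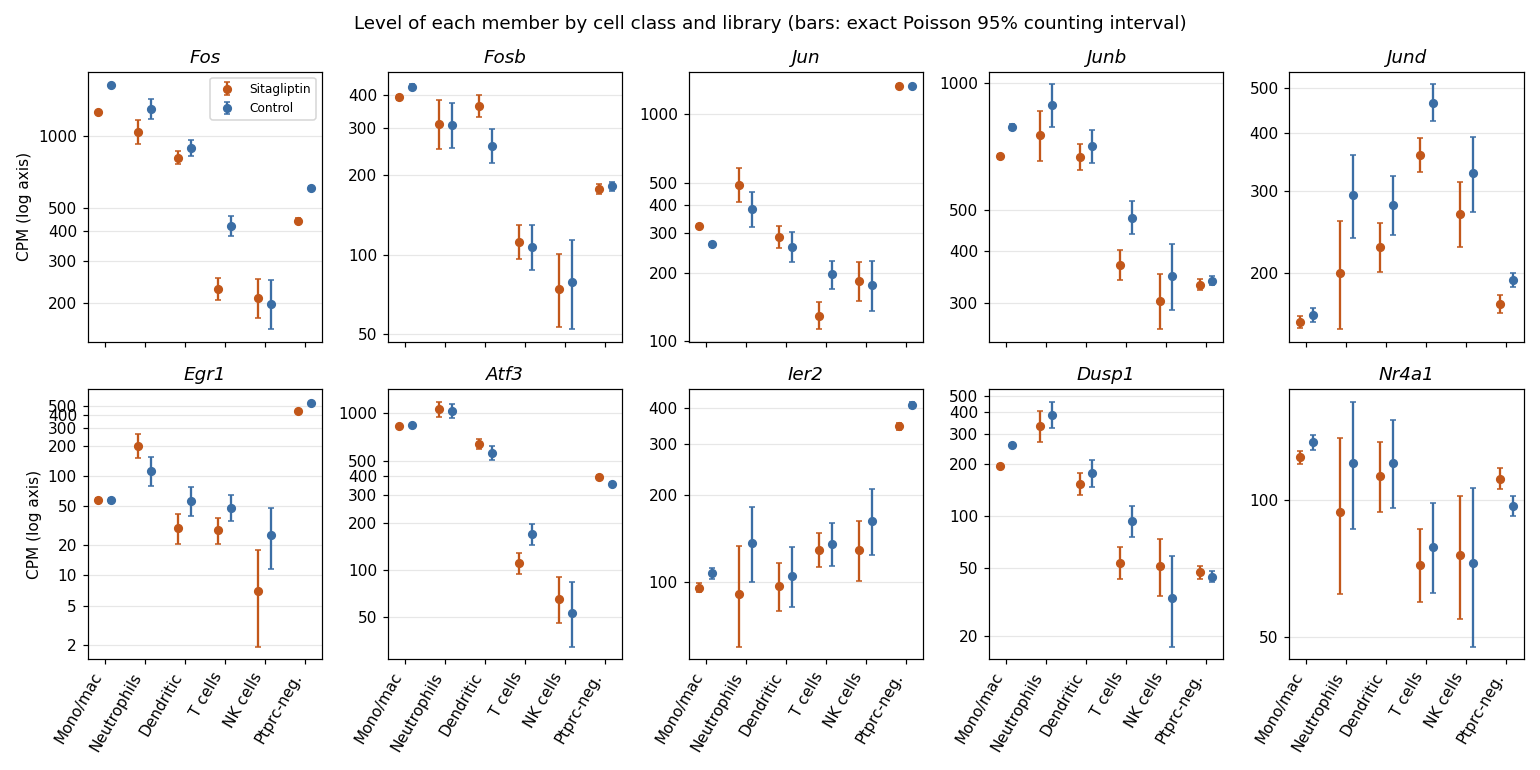
Level of each of the 10 genes in CPM (log axis) in 6 cell classes, with the sitagliptin library left and the control library right within each class; bars are exact Poisson 95% counting intervals. Jun, Egr1 and Ier2 peak in Ptprc-negative barcodes, Fos, Fosb and Nr4a1 in monocytes and macrophages, and Jund in T cells (359 and 466 CPM).

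In T cells 9 of the 10 genes had a lower level in the sitagliptin library, and 5 of them were lower by 1.5-fold or more. Over all 8450 genes with at least 20 UMIs in T cells 11.3% were lower by that much. No gene of the set was higher by 1.5-fold or more, against 7.09% of all genes. The median log2 ratio of the 10 genes was -0.49, against -0.07 for all genes tested. The count of 5 fell to 2 with likely doublets kept, to 2 without barcodes that held a C1q UMI, to 3 with median-of-ratios scaling and to 1 without barcodes that held a C1q, Lyz2, Apoe or Spp1 UMI, where 1 gene was higher.

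Of the Fos family, Fos itself had the lowest ratio of the 10. It was at 230 CPM (207 to 254) in sitagliptin T cells and at 421 CPM (382 to 464) in control T cells, a ratio of 0.545 (0.473 to 0.629). Fosb had 112 CPM (96.1 to 129) and 107 CPM (87.2 to 129), a ratio of 1.05 (0.820 to 1.35). The share of T cells with a Fos UMI, after each barcode was thinned to 2000 UMIs, was 27.9% and 33.7%, and unthinned 38.6% and 42.7%. These shares lie closer together than the levels. A barcode with Fos held 2.40 Fos UMIs on average in the sitagliptin library and 3.95 in the control library, and the 5 richest barcodes held 15.6% and 27.2% of all Fos UMIs.

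Of the Jun family 1 of 3 genes was lower by 1.5-fold or more. It was Jun, which had 130 CPM (113 to 148) in sitagliptin T cells and 197 CPM (170 to 227) in control T cells, a ratio of 0.658 (0.539 to 0.804). Junb, whose protein dampens Jun at many promoters, had 370 CPM and 479 CPM (0.772, 0.683 to 0.873). Jund, the family's constitutive subunit, had 359 CPM and 466 CPM (0.771, 0.681 to 0.873). For Jund the thinned share of cells was 47.8% and 58.9%, and for Jun 15.4% and 23.6%.

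Atf3, a stress-induced repressor, was at 110 CPM (94.4 to 127) in sitagliptin T cells and 170 CPM (145 to 197) in control T cells (0.648, 0.522 to 0.805). The 5 richest barcodes held 28.7% and 37.7% of all Atf3 UMIs. Egr1 rested on few molecules, 46 and 47 UMIs, and gave 28.4 CPM (20.8 to 37.9) and 47.7 CPM (35.1 to 63.5), a ratio of 0.595 (0.388 to 0.913). Dusp1 had 53.7 CPM (43.0 to 66.3) and 93.4 CPM (75.3 to 115), a ratio of 0.575 (0.424 to 0.780). Nr4a1 and Ier2 were close to even, with 72.2 and 79.2 CPM for Nr4a1 (0.912, 0.679 to 1.23) and 129 and 135 CPM for Ier2 (0.956, 0.765 to 1.20).

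Some RNA that is abundant in macrophages moved with these values. Lyz2, the macrophage lysozyme gene, was at 182 CPM in sitagliptin T cells and 365 CPM in control T cells, and Spp1, the osteopontin gene, at 141 and 520 CPM. Spp1 was higher in NK cells (803 and 956 CPM), although Lyz2 there was lower (63.5 and 252 CPM). Ptprc-negative barcodes had 621 and 606 CPM of Spp1. The source of the Spp1 UMIs was not tested. C1qa was at 13.6 and 13.2 CPM and Apoe at 60.5 and 73.1 CPM. The gate limited C1qa and the other macrophage markers to 3 UMIs together in a T cell, but not Lyz2, Apoe or Spp1. Of the 9 macrophage markers used in the gates none was at 0 in either library, and they summed to 131 and 154 CPM. After thinning, 15.2% of sitagliptin T cells and 23.6% of control T cells had a Lyz2 UMI. Cd3e, a T cell marker used in the gates, was at 489 and 299.5 CPM. With T cells restricted to the 181 sitagliptin and 109 control barcodes without a C1q, Lyz2, Apoe or Spp1 UMI, the Fos level was 178 CPM (108 UMIs) and 216 CPM (81 UMIs), a ratio of 0.823 (0.611 to 1.11). Atf3 (0.948), Dusp1 (0.944) and Egr1 (1.30, on 19 and 9 UMIs) no longer lay below by 1.5-fold in these barcodes, and Jun did, at 77.5 and 125 CPM (0.617, 0.403 to 0.945). Fosb was the only gene of the 10 higher there by 1.5-fold, with 102 and 66.8 CPM (1.53, 0.948 to 2.54). No class is known to lack these genes, so no background share could be set for them.

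**Figure D2:**
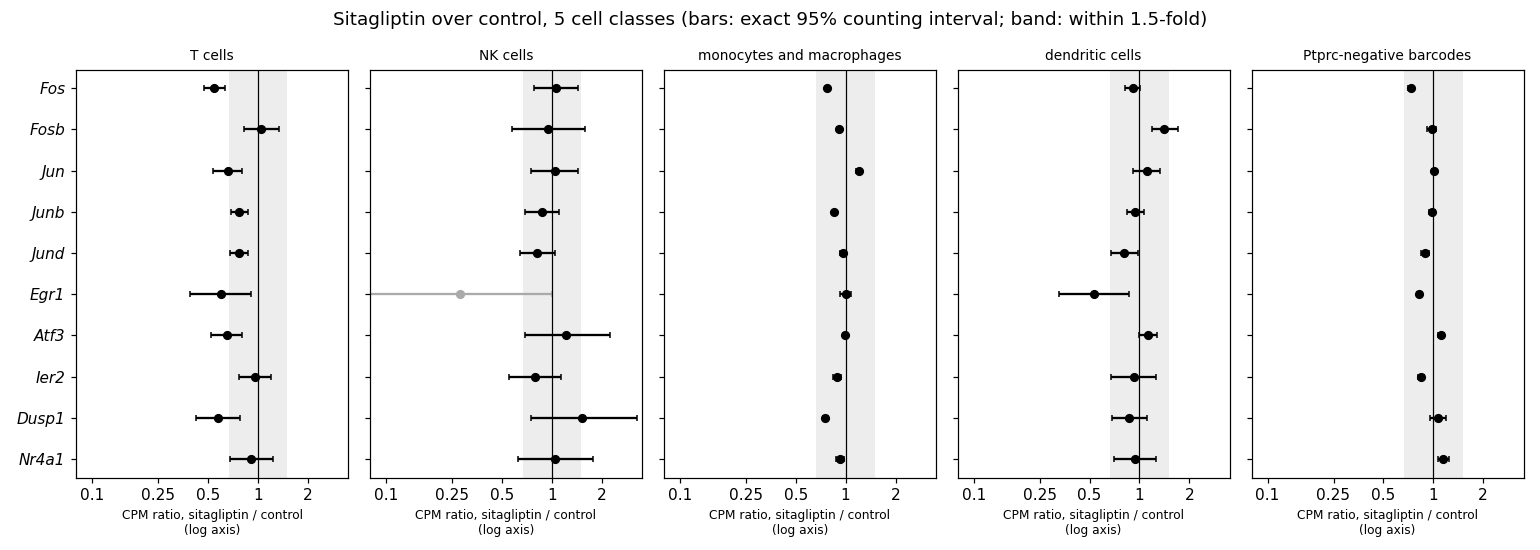
Ratio of CPM, sitagliptin over control, for each of the 10 genes in 5 cell classes (log axis); bars are exact conditional 95% counting intervals, the grey band marks less than 1.5-fold, and the grey point has fewer than 20 UMIs. In T cells 5 of 10 genes lie left of the band, and in monocytes and macrophages all 10 lie inside it.

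T cell subsets gave similar counts. Cycling T cells (66 sitagliptin and 65 control barcodes) had 5 of 10 genes lower by 1.5-fold or more, against 12.3% of all genes. Among CD8 T cells that were not cycling (219 and 120) 4 of 10 were lower by that much, against 13.4%, and among other T cells (98 and 51) 4 of 9, against 17.9%. Fos was at 125 and 254 CPM in cycling T cells (ratio 0.491, 0.338 to 0.706), at 252 and 404 CPM in CD8 T cells (0.624, 0.507 to 0.768) and at 310 and 671 CPM in other T cells (0.462, 0.353 to 0.603). The 5 richest barcodes held 38% (sitagliptin) and 55.4% (control) of the Fos UMIs in cycling T cells. These shares were 28.4% and 49.4% in CD8 T cells and 27.2% and 53.9% in other T cells. How far the Fos ratios rest on these barcodes was not tested. Lyz2 differed in the same direction in each subset, at 105 and 169 CPM in cycling T cells, 215 and 373 CPM in CD8 T cells and 193 and 634 CPM in other T cells, and the part of myeloid RNA in these values was not tested within subsets.

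Atf3 and Jund did not keep one ratio across the subsets. Atf3 was at 59.9 and 46.0 CPM in cycling T cells (1.30, 0.657 to 2.67, on 24 and 15 UMIs) and at 141 and 251 CPM in CD8 T cells (0.560, 0.427 to 0.736). Jund was at 260 and 420 CPM in cycling T cells (0.619, 0.475 to 0.804) and at 407 and 504 CPM in CD8 T cells (0.807, 0.678 to 0.963). In other T cells Fosb was the 1 gene of 9 higher by 1.5-fold or more, against 13.4% of all genes, at 120 and 62.9 CPM (1.91, 0.984 to 4.01). The differences between subsets were not tested. CD4 T cells numbered 19 and 10, too few for a ratio, and had 197 CPM (15 UMIs) and 767 CPM (32 UMIs) of Fos.

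In NK cells no gene of the 9 with enough UMIs was lower by 1.5-fold or more, against 10.8% of all genes, and 1 was higher, against 11.3%. That gene was Dusp1, at 51.2 CPM (34.3 to 73.5) in sitagliptin NK cells and 33.6 CPM (17.4 to 58.7) in control NK cells, on 29 and 12 UMIs (1.52, 0.753 to 3.27). Fos had 210.0 and 199 CPM (1.06, 0.780 to 1.44), Jun 184 and 177 CPM (1.04, 0.753 to 1.45), and Jund 268 and 328 CPM (0.818, 0.639 to 1.05). Egr1 had 4 and 9 UMIs, 7.06 and 25.2 CPM, and was left out of the count. Lyz2 was at 63.5 and 252 CPM in these cells and Spp1 at 803 and 956 CPM. Whether the NK ratios differ from the T cell ratios was not tested.

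Monocytes and macrophages had the most UMIs and the narrowest counting intervals. None of the 10 genes was lower or higher by 1.5-fold or more, against 3.43% of all genes lower and 4.52% higher. Ratios were below 1 for 8 genes, and the median log2 ratio was -0.12, against -0.06 for all genes. Fos was at 1258 CPM in sitagliptin and 1629 CPM in control macrophages (0.772, 0.761 to 0.784). Dusp1 was at 194 and 258 CPM (0.753, 0.725 to 0.783), and Junb at 670 and 787 CPM (0.851, 0.834 to 0.870). These 3 had the lowest ratios of the set in this class.

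Jun was the gene with the highest ratio, at 321 CPM (314 to 327) in sitagliptin macrophages and 267 CPM (260 to 275) in control macrophages (1.20, 1.16 to 1.24). The thinned share of macrophages with a Jun UMI was 39.7% and 34.5%, and that with a Fos UMI 73.8% and 80.8%. The remaining genes were nearer to even. Atf3 had 832 and 843 CPM (0.986), Egr1 56.8 and 56.7 CPM (1.001, 0.927 to 1.08), Jund 156 and 162 CPM (0.964), Nr4a1 124 and 134 CPM (0.926), Fosb 393 and 431 CPM (0.910) and Ier2 95.3 and 107 CPM (0.892).

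The ratios of Egr1, Ier2 and Jun depended on barcodes that carry genes of the Ptprc-negative barcodes beyond the limit given above. When such barcodes were allowed into the class (3838 sitagliptin and 2842 control), Egr1 was at 91.8 and 128 CPM (0.720, 0.684 to 0.758), Ier2 at 115 and 154 CPM (0.746, 0.712 to 0.781) and Jun at 407 and 405 CPM (1.005, 0.978 to 1.03). Cald1 was then at 82.2 and 135 CPM, against 8.72 and 9.91 CPM in the class as called. Fos (0.798) and Dusp1 (0.775) had ratios closer to those above, and the part of RNA of Ptprc-negative barcodes in these shifts was not tested.

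**Figure D3:**
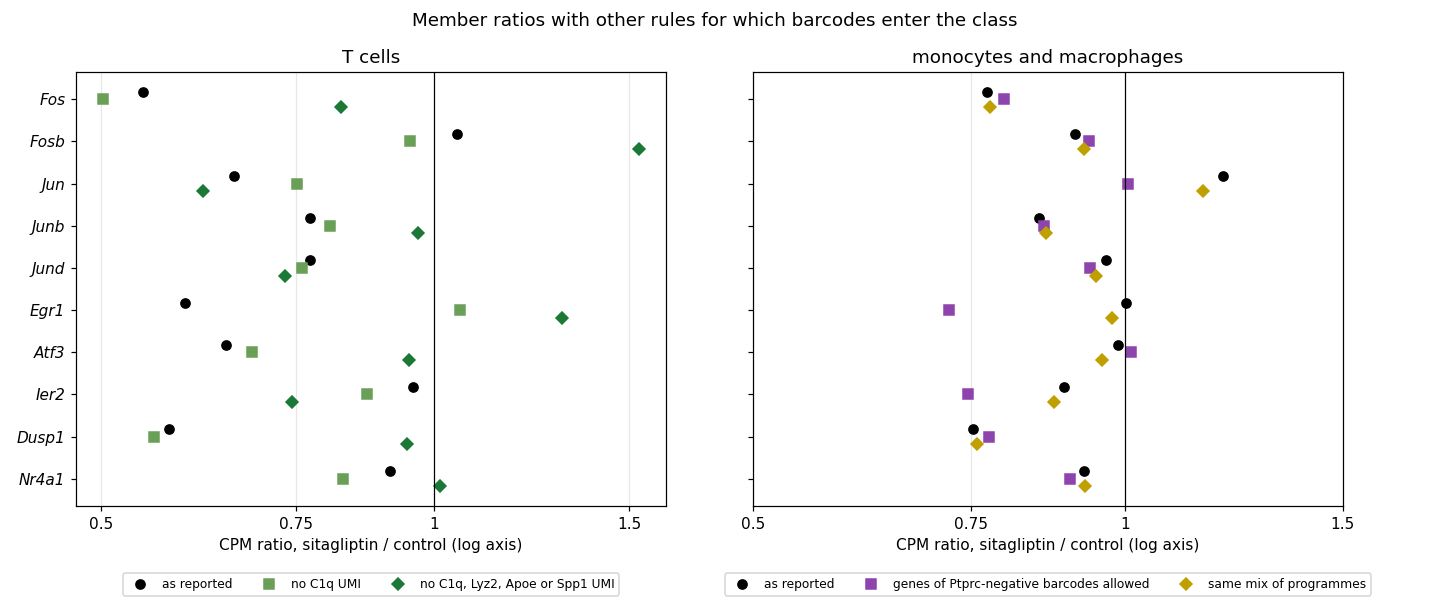
Ratio of CPM, sitagliptin over control (log axis), for each of the 10 genes in T cells (left) and in monocytes and macrophages (right), with black circles for the classes as called and coloured symbols for other rules on which barcodes enter. Egr1 in T cells lies at 0.595 as called and at 1.30 without C1q, Lyz2, Apoe or Spp1 UMIs. Egr1 in macrophages lies at 1.001 as called and at 0.720 with genes of Ptprc-negative barcodes allowed.

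Macrophage programmes, groups defined by sets of marker UMIs, showed whether the pattern held within kinds of macrophage. A barcode could belong to several programmes. In all 9 groups with at least 40 barcodes per library the ratios of Fos, Junb and Dusp1 were below 1, and Jun was above 1 in 8 of 9. Fos ranged from 0.687 in the cycling programme (1208 CPM in sitagliptin and 1759 CPM in control cells) to 0.876 in the inflammatory programme (1533 and 1750 CPM). Dusp1 was lowest in macrophages of no programme, at 169 and 262 CPM (0.646, 0.603 to 0.692), where it was the 1 gene of the set lower by 1.5-fold or more, against 4.46% of all genes.

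Jun had its highest ratio in the interferon programme, marked by Ifit1, Rsad2 and Isg15, with 511 CPM in sitagliptin and 346 CPM in control cells (1.48, 1.33 to 1.64). In the monocyte programme, marked by Ly6c2 and Plac8, it was at 604 and 421 CPM (1.44, 1.32 to 1.57), and in the resident-like programme at 389 and 398 CPM (0.978, 0.863 to 1.11). Over both libraries 197 of the 333 resident-like barcodes held only the minimum of 2 marker UMIs after thinning, and 630 barcodes lay just below it. Within each library Jun was also higher in the monocyte programme than in macrophages of no programme, by 2.29-fold with sitagliptin and 1.75-fold in control. Fosb went the other way, at 0.387 and 0.443 of its level in macrophages of no programme.

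Egr1 spread most over the programmes. It was at 85.6 CPM in sitagliptin and 52.3 CPM in control cells of the lipid-associated programme (1.64, 1.37 to 1.96), marked by Gpnmb and Trem2, where it was the 1 gene higher by 1.5-fold or more, against 5.17% of all genes. In the Cxcl9 programme it was at 39.8 and 67.5 CPM (0.589, 0.464 to 0.749), the 1 gene lower by that much, against 6.57%. In the inflammatory programme it was at 108 and 75.6 CPM (1.42, 1.19 to 1.71). The thinned share of cells with an Egr1 UMI was 10.6% and 9.46% in the lipid-associated programme and 5.81% and 13.9% in the Cxcl9 programme. In the lipid-associated programme a positive barcode held 3.33 Egr1 UMIs on average with sitagliptin and 2.08 in control, so there the level differed more than the share of cells. Differences between programmes were not tested.

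The Retnla programme (87 sitagliptin and 35 control barcodes) had too few barcodes for a ratio. Fos was at 1045 CPM and 1741 CPM there, Jun at 387 and 697 CPM and Atf3 at 1519 and 2145 CPM.

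**Figure D4:**
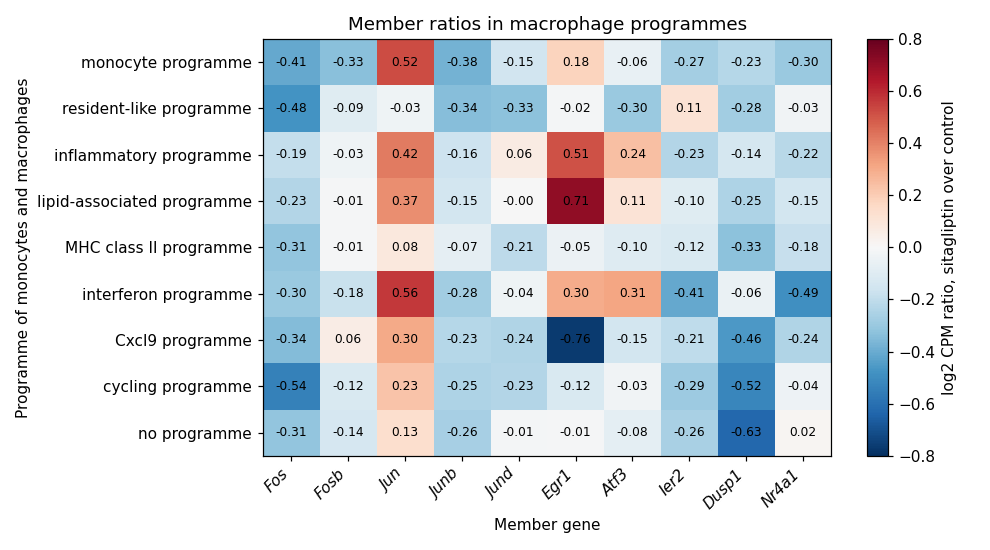
Log2 ratio of CPM, sitagliptin over control, for the 10 genes (columns) in 9 groups of monocytes and macrophages (rows); red is higher with sitagliptin and blue lower. The Fos, Junb and Dusp1 columns are blue throughout, the Jun column is red in 8 of 9 groups, and Egr1 runs from 0.71 in the lipid-associated programme to -0.76 in the Cxcl9 programme.

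Dendritic cells had 1 of 10 genes lower by 1.5-fold or more, against 10.8% of all genes, and none higher, against 9.3%. The lower one was Egr1, at 29.8 CPM (34 UMIs) in sitagliptin and 56.0 CPM (38 UMIs) in control cells (0.532, 0.325 to 0.869). When barcodes past the limit on genes of the Ptprc-negative barcodes were allowed into the class, Egr1 was at 83.2 and 205 CPM (0.406). Ier2 was then at 127 and 210.3 CPM (0.606), so 2 genes lay below by 1.5-fold. Fosb had the highest ratio, at 365 CPM (331 to 402) and 258 CPM (221 to 299), a ratio of 1.41 (1.18 to 1.70). Its thinned share of cells was 37.7% and 29.1%. Atf3 had 634 and 562 CPM (1.13, 0.996 to 1.28), Fos 812 and 892 CPM (0.910, 0.820 to 1.01) and Jun 288 and 261 CPM (1.10, 0.916 to 1.33). The 5 richest barcodes held 18.03% of the Fosb UMIs in the sitagliptin library and 35.4% in the control library, and the class held T cell marker UMIs at 158 and 162 CPM.

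Mature migratory dendritic cells, marked by Ccr7, Fscn1 and Ccl22, made up 104 and 84 of these barcodes and gave 1 of 10 genes lower by 1.5-fold or more, against 11.8% of all genes. It was Egr1 again, on 16 and 18 UMIs, at 24.2 and 45.3 CPM (0.534, 0.255 to 1.11). Fosb was at 297 and 209 CPM (1.42, 1.10 to 1.86) and Atf3 at 498 and 392 CPM (1.27, 1.05 to 1.55). The other subsets were too small for ratios. Conventional type 2 cells (49 and 37 barcodes) had 822 and 1194 CPM of Atf3, and type 1 cells (30 and 20) had 825 and 378 CPM. Plasmacytoid cells (33 and 19), a class outside these dendritic cells and also too small for ratios, had 425 and 252 CPM of Atf3. The plasmacytoid class held macrophage RNA, with C1qa at 441 and 1036 CPM and Lyz2 at 1009 and 2050 CPM. Its part in the Atf3 levels was not tested.

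Neutrophils (42 sitagliptin and 52 control barcodes) had 1 gene of 10 higher by 1.5-fold or more, against 10.6% of all genes. It was Egr1, at 199 CPM (151 to 258) and 112 CPM (78.9 to 154), a ratio of 1.78 (1.16 to 2.77), while Fos was at 1039 and 1297 CPM (0.801, 0.688 to 0.931). The part of the macrophage RNA in this class, given above, in these ratios was not tested.

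Ptprc-negative barcodes had none of the 10 genes past 1.5-fold, against 3.22% of all genes lower and 4.16% higher. Fos was at 443 CPM (431 to 455) in the sitagliptin library and 606 CPM (594 to 618) in the control library, a ratio of 0.731 (0.707 to 0.756). Egr1 was at 441 and 538 CPM (0.821, 0.793 to 0.849) and Ier2 at 346 and 411 CPM (0.841, 0.808 to 0.874). Jun, the gene of the 10 with the highest level in this class, was at 1338 and 1328 CPM (1.01, 0.987 to 1.03), and 79.6% and 80.5% of thinned barcodes had a Jun UMI. Nr4a1 was at 112 and 97.4 CPM (1.15, 1.07 to 1.23) and Atf3 at 392 and 354 CPM (1.11, 1.07 to 1.15).

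The 10 genes were seen together in single barcodes to different extents. After thinning, a macrophage held a UMI of 3.82 of the 10 genes on average in the sitagliptin library and 4.07 in the control library, and 32.7% and 39.0% held 5 or more. For T cells the averages were 2.18 and 2.59 genes, and 10.4% and 6.50% of them held none. Ptprc-negative barcodes held 3.79 and 3.81 genes. In sitagliptin T cells 33.0% of cells with a Fos UMI also had a Jun UMI, against 8.62% of cells without one, and in control T cells the shares were 31.3% and 19.6%. Ier2 did not go with Fos in T cells, at 18.8% of sitagliptin cells with Fos and 19.3% without, and at 22.9% and 20.9% in control. After thinning 15.2% of sitagliptin and 23.6% of control T cells held a Lyz2 UMI. The part of myeloid RNA in these T cell shares was not tested. In macrophages Egr1 was found in 10.1% of sitagliptin cells with Fos and 5.64% without, and in 10.6% and 5.59% in control.

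**Figure D5:**
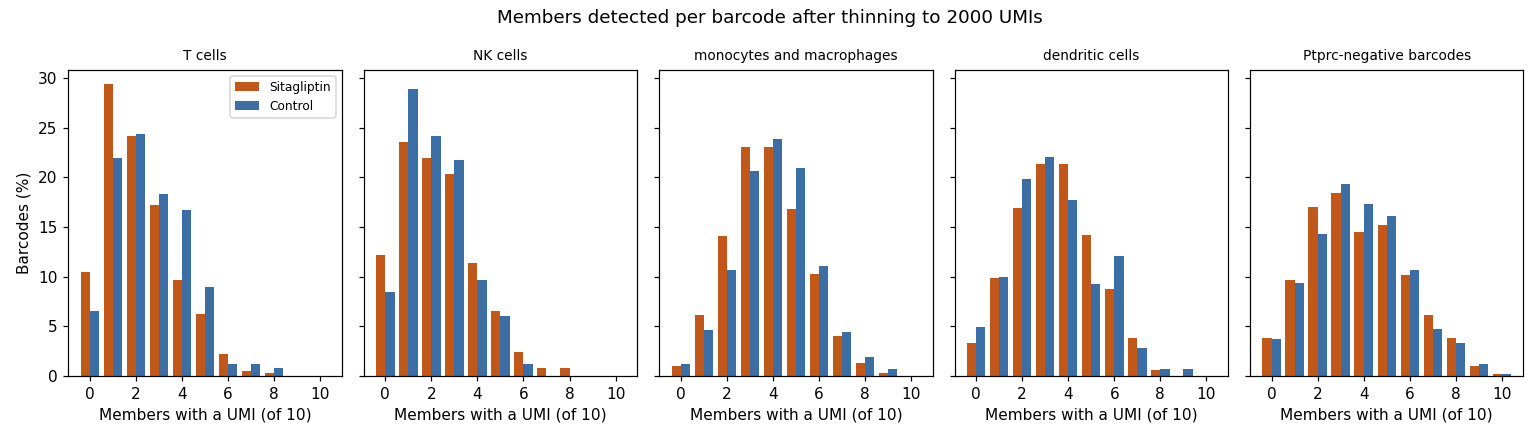
Share of barcodes (%) by the number of the 10 genes with a UMI, after thinning every barcode to 2000 UMIs, in 5 cell classes, with sitagliptin bars left and control bars right. Sitagliptin T cells and macrophages average 2.18 and 3.82 genes, against 2.59 and 4.07 in control, and Ptprc-negative barcodes 3.79 against 3.81.

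Other genes of the pathway were counted over whole lists, and the T cell counts stand against 11.3% of all genes lower and 7.09% higher. In T cells none of 11 measured AP-1 and ATF subunits outside the set was higher by 1.5-fold or more. By that much 2 of the 11 were lower, Maff among them (14.8 and 29.4 CPM, 0.503). Fosl2 (129 and 139 CPM) and Batf (51.3 and 52.8 CPM), the AP-1 partner of IRF4 in T cells, had ratios of 0.928 and 0.971. Of 11 further immediate early transcription factors 3 were lower by that much, Klf2, Nfil3 and Id2, and none higher. Of 29 feedback and signalling genes 6 were lower, Ier3, Nfkbia, Rhob, Sgk1, Mcl1 and Errfi1, and none higher. All 6 had higher levels in monocytes and macrophages than in T cells, with Nfkbia at 901 and 1047 CPM against 419 and 647 CPM. The list counts are given only for T cells as called, not for those without C1q, Lyz2, Apoe or Spp1 UMIs. The part of myeloid RNA in these counts was not tested. Ier3, which is abundant in macrophages (425 and 517 CPM), was at 42.0 and 119 CPM in T cells (0.353, 0.258 to 0.481). Nr4a3, a relative of Nr4a1 induced by antigen receptor signalling, had the highest ratio of the measured factors, at 191 and 134 CPM (1.43, 1.16 to 1.76). Among upstream kinases and factors 1 of 25 was lower and none higher. It was Mapk3, the ERK1 gene, at 14.8 and 24.4 CPM (0.608, 0.331 to 1.12), while Creb1, the gene of the CRE-binding factor CREB, had 64.8 and 69.0 CPM.

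In monocytes and macrophages no gene of these 4 lists passed 1.5-fold, against 3.43% of all genes lower and 4.52% higher. Klf2, a factor of quiescent cells, had the lowest ratio at 79.7 and 119 CPM (0.670, 0.632 to 0.709). In Ptprc-negative barcodes Klf2 was at 430.0 and 654 CPM (0.658, 0.636 to 0.680). It was the 1 of 13 measured immediate early transcription factors lower by 1.5-fold, against 3.22% of all genes. Nr4a3 (12.9 and 5.79 CPM, 2.23) and Egr3 (56.1 and 37.3 CPM, 1.51) were the 2 higher, against 4.16%. Of 13 other AP-1 and ATF subunits 1 was lower and 1 higher there. Of 28 feedback and signalling genes 1 was higher and 0 lower, and of 27 upstream kinases and factors 0 passed 1.5-fold. Heat shock genes, which also respond to dissociation, had 0 of 14 lower and 0 higher by 1.5-fold in T cells and a median log2 ratio of -0.15. In macrophages 1 of 15 was higher, against 4.52% of all genes, Hspa1a at 48.1 and 31.3 CPM (1.54, 1.40 to 1.69). Another 1 was lower, against 3.43%, Hspb1 at 6.43 and 14.1 CPM (0.456), and the median of the list was -0.05.

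Barcodes that held T cell and macrophage markers together, 563 with sitagliptin and 633 in control, had a ratio below 1 for all 10 genes. None passed 1.5-fold, against 4.33% of all genes lower and 4.01% higher. Fos was at 887 CPM in the sitagliptin library and 1132 CPM in the control library (0.784, 0.757 to 0.811), Dusp1 at 151 and 198 CPM (0.761) and Nr4a1 at 104 and 108 CPM (0.964). Unassigned barcodes, 3581 and 3352, also had no gene past 1.5-fold, against 4.94% lower and 3.49% higher. Ier2 (179 and 248 CPM, 0.721) and Egr1 (229 and 309 CPM, 0.739) had the lowest ratios there, and Jun was at 767 and 749.8 CPM (1.02).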

How the data were processed

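UMI counts per gene and barcode were used as deposited by the authors in 2 matrices, 1 per diet. The labels' protocols name the SeekOne DD 5' kit. Aligner, genome build and barcode filter: not given in the sources used here. Per barcode the lowest total was 2001 UMIs.

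Scrublet (scanpy 1.11.5, Python 3.11.15) marked 0 doublets at its automatic threshold, so the 6% of barcodes with the highest doublet scores were removed from each library, 586 from sitagliptin and 522 from control. A monocyte or macrophage needed at least 15 UMIs of macrophage markers, or at least 5 of Ly6c2, Plac8 and Vcan with a Ptprc UMI. A T or NK cell needed 3 UMIs of its markers, and a mature dendritic cell 10. T and NK cells held at most 3 macrophage UMIs. Other cells of the sort, such as B, plasma and mast cells, had markers at or near 0 in T and NK cells. The gates were set after marker UMIs had been seen, and the members and lists were chosen with earlier results of these data known.

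UMIs were summed per class and library, and CPM, exact Poisson and exact conditional binomial intervals at 95% were computed with scipy 1.17.1. A gene counted as measured with at least 20 UMIs over both libraries, a ratio was given for classes with at least 40 barcodes in each, and 1.5-fold marked a difference. No count test was run with 1 library per group. The calculation was tested on simulated data. All 10 genes were named in each class; genes outside them come from the lists. Values of 2 genes of these lists are not reported here.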

Additional observations from a re-analysis of the deposited data

How the results depend on the processing

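Over 510 recomputed ratios of the 10 genes in 5 classes, 454 stayed within the counting interval of the reported ratio, some of them on the other side of 1, 53 lay outside it and 3 ratios past 1.5-fold changed direction. Those 3 were Egr1 in T cells, at 1.05 without C1q UMIs and 1.30 without C1q, Lyz2, Apoe or Spp1 UMIs, and Egr1 in NK cells, which had too few UMIs to be counted, at 2.47 when genes of Ptprc-negative barcodes were allowed. The last 2 alternatives were chosen after seeing the data. The 5 genes lower by 1.5-fold in T cells became 2 with doublet calls kept, 2 without C1q UMIs and 3 with median-of-ratios scaling. That count became 1 without C1q, Lyz2, Apoe or Spp1 UMIs, and the count higher became 1 in that last case. In NK cells 0 lower became 1 with a stricter marker call, with at least 3000 UMIs per barcode and with no minimum of UMIs. It also became 1 without C1q, Lyz2, Apoe or Spp1 UMIs (52 sitagliptin and 27 control barcodes). The 1 higher in NK cells became 2 with the mean of per-barcode CPM. It became 0 with at least 3000 UMIs per barcode and 0 with at least 100 UMIs per gene. In dendritic cells 1 lower became 0 with at least 3000 UMIs per barcode, 2 with genes of Ptprc-negative barcodes allowed and 0 with at least 100 UMIs per gene. In monocytes and macrophages and in Ptprc-negative barcodes the counts were 0 under every alternative run. The cause of these changes was not tested. No paired analysis was possible because each diet has 1 library. With 1 library per diet, a difference between diets, between mice and between library preparations cannot be told apart, and small classes limit Egr1 most.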
